A study of Saccharomyces cerevisiae with 12 samples.

Results

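Wild-type yeast grown in medium that a cbf1 deletion strain had already used was compared with wild-type yeast grown in medium taken from wild-type cells. The arrays of this comparison were taken by their sample labels, which gave 4 of the 12 arrays of the series, 2 for each medium, and all 6388 gene probes were described. The comparison itself was chosen with earlier results of these data known. The cultured cells were in every case BY4742, a wild-type laboratory strain of *Saccharomyces cerevisiae* of mating type alpha, so that CBF1 itself was intact in the cells whose RNA was measured. The donor strain, lacking CBF1 or wild type, had passed through 2 doublings in SC (synthetic complete) medium containing 2% glucose, its cells were removed by centrifugation and filtration, and the recipient cells were then grown for another 2 doublings in the remaining medium. Each array set the RNA of such a culture against a common reference RNA from a single wild-type culture, and in each medium 1 array had the sample in Cy3 (array 1) and the other in Cy5 (array 2). Whether the arrays of a medium came from separate cultures or from relabelled RNA could not be settled from the sources, so that n counts arrays and p-values measure the spread between arrays. The comparison asks whether a slow-growing donor leaves the medium in a state that alters expression in healthy cells.

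Cbf1 is a helix-loop-helix protein that binds the promoters of genes for sulfate assimilation and methionine synthesis and also the centromeres. A conditioned medium can differ from fresh medium in what the donor took up and in what it released, and budding yeast reads its surroundings through regulons that each follow 1 nutrient. The best known of them for metals is the iron regulon, which the factors Aft1 and Aft2 switch on when iron is scarce and which encodes siderophore transporters, cell wall mannoproteins that hold siderophores, the reductases and oxidase-permease complex of the reductive pathway, and proteins that release stored iron or spare it. Glucose is read through the Rgt1 and Mig repressors, and genes for stress defence and for making ribosomes move in opposite directions when growth slows.

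On the 4 arrays the median gene-spot intensity was 327 to 507 in Cy5 and 266 to 367 in Cy3 over a median background of 44.5 to 52.2, and 5193 probes (81.3%) lay over 2 times background in both channels on all 4. Values are log2 ratios of sample to reference after background correction with an offset of 50, which draws the ratios of dim probes toward 0, and loess normalization of each array. Arrays with the sample in the same dye resembled each other more than arrays of the same medium. Across gene probes, which are not independent replicates, the correlation was 0.924 between array 1 of cbf1 medium and array 1 of wild-type medium and 0.926 between the second arrays, against 0.745 within cbf1 medium and 0.667 within wild-type medium. The fit across all 12 arrays therefore carried a dye term beside the 6 group means. Genes that mark alpha cells gave signals of 39.3 to 240 times background (4 of 4 over 2 times), whereas 2 of 7 genes specific to a cells and 1 of 12 meiotic genes exceeded 2 times. URA3, LEU2 and LYS2, which BY4742 carries as disrupted alleles, lay at 1.1, 1.1 and 1.9 times background, while the probe for HIS3, disrupted as well, lay at 4.1 times.

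Differences between the media were small. The median difference over all probes was 0.00075, with a 5th percentile of -0.066 and a 95th of 0.067. The probes divided into 3243 with a higher value in cbf1 medium (50.8%) and 3145 with a lower one (49.2%). The median standard error of a difference was 0.049. Limma called 0 of 6388 probes (0%) at a Benjamini-Hochberg adjusted p under 0.05. The smallest adjusted p was 0.262, for SIT1, and the next was 0.999, so that for the other genes named below the adjusted p was 0.999 or more and the unadjusted p-values of limma serve only to order them. At an unadjusted p under 0.05 limma found 83 probes, 39 higher (0.611%) and 44 lower (0.689%), where chance alone gives 319.4. With an array left out the number rose or fell, depending on the array, and in some cases passed the chance number. Since fewer probes passed with all arrays than chance gives, 0 calls do not show that no gene differed. The arrays of the media did not overlap for 332 probes that lay higher in cbf1 medium (5.2%) and 340 that lay lower (5.32%). No probe differed by over 1.7-fold, the limit used in the study, and 5 differed by over 1.2-fold, 4 of them higher. The 95% interval stayed inside 1.7-fold for 6383 probes.

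CBF1 itself was at 0.07 and -0.05 in cbf1 medium and at 0.04 and -0.09 in wild-type medium. These values overlapped, and the difference was 0.036 ± 0.040 (SE, n = 2 arrays per medium here and below).

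The lower values of cbf1 medium were led by genes of iron uptake. Of the 12 named genes with the smallest p among the lower ones, 6 belonged to the list of 30 iron regulon genes, as did 5 of the 8 with the largest lower difference and no overlap. Over the whole list, 27 of 30 measured members were lower in cbf1 medium and 3 were higher, with a median difference of -0.080. The list's median was -0.19 and -0.19 on the arrays of cbf1 medium and -0.15 and -0.13 on those of wild-type medium. All of these lay below the reference, and the medium groups did not overlap. Medians of some other lists lay apart as well. They were lower in cbf1 medium for copper genes (-0.096 and -0.081 against -0.068 and -0.069). They were higher for glucose-regulated genes (-0.019 and -0.015 against -0.022 and -0.032) and pheromone response genes (0.142 and 0.138 against 0.102 and 0.136). At an unadjusted limma p under 0.05, 8 iron genes were lower and 0 higher, against 0.689% lower among all probes. For 9 iron genes every cbf1 array lay under every wild-type array, against 5.32%. None of the 30 passed adjustment over all probes. With each of the 4 arrays left out in turn, SIT1, ENB1, ARN1, TIS11, SMF3 and FET3 kept their differences within 1.5 times the value given below, whereas FTR1 ranged from -0.27 to -0.097 and HMX1 from -0.21 to -0.061. The list was drawn up with earlier results of these data known and its counts are a description.

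The siderophore transporters, which take up iron bound to chelators made by other microbes, stood lowest, with a median difference of -0.20 over all 4. SIT1, the ferrioxamine transporter, was at -0.79 and -0.83 in cbf1 medium and at -0.46 and -0.37 in wild-type medium. Both cbf1 arrays thus lay well under both wild-type arrays. The difference was -0.40 ± 0.050, which is 0.760 times the level in wild-type medium, with a limma adjusted p of 0.262. SIT1 was also bright, at 17.8 times background or more. ENB1, which carries enterobactin, was at -0.83 and -0.93 against -0.56 and -0.72, again without overlap and lower in cbf1 medium by -0.24 ± 0.055. ARN1, a transporter of ferrichrome-type siderophores, was at -0.56 and -0.58 against -0.40 and -0.43 (difference -0.15 ± 0.041). ARN2, which carries triacetylfusarinine, was at -0.60 and -0.49 against -0.56 and -0.33. Its media overlapped, and its difference of -0.10 ± 0.050 had an unadjusted limma p of 0.069, while those of SIT1, ENB1 and ARN1 were 4.1e-05, 0.0023 and 0.0057.

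The FIT mannoproteins of the cell wall, which help to retain siderophores, behaved less evenly. FIT2 had the lowest ratios of the list, at -1.25 and -1.02 in cbf1 medium and -0.98 and -1.01 in wild-type medium. FIT3 was at -0.98 and -0.74 against -0.81 and -0.71. Only the first cbf1 array stood clearly lower for these genes, and the differences of -0.14 ± 0.17 and -0.099 ± 0.14 were smaller than their errors. FIT1 lay near the reference in both media and differed by 0.0055 ± 0.045.

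In the reductive pathway, where surface reductases deliver ferrous iron to an oxidase and a permease, all 9 measured genes were lower, with a median of -0.057. FET3, the multicopper oxidase, was at -0.48 and -0.36 in cbf1 medium and at -0.23 and -0.18 in wild-type medium. FTR1, the permease that works with it, was at -0.16 and -0.20 against -0.08 and 0.09. For both partners the cbf1 arrays lay under the wild-type arrays, with differences of -0.21 ± 0.081 and -0.18 ± 0.057 (unadjusted limma p of 0.031 and 0.012). The reductase gene FRE1 overlapped between the media at 0.08 and -0.13 against 0.05 and 0.18. FRE2 differed by -0.072 ± 0.035 at a dim signal of 1.6 times background, and FRE3, FRE4 and FRE5, at 2.0, 1.3 and 1.3 times background, by -0.042, -0.026 and -0.0075. The copper genes that serve Fet3, the chaperone ATX1 and the pump CCC2, differed by -0.016 ± 0.047 and -0.057 ± 0.085.

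The list's genes for proteins of the vacuole or mitochondria were lower in 6 of 6 cases, with a median of -0.061. SMF3, a vacuolar iron exporter, was at -0.57 and -0.32 in cbf1 medium against -0.46 and -0.18 in wild-type medium. The arrays of the media overlapped. Within the dyes the differences were -0.11 and -0.15, and the difference fitted with the dye term was -0.13 ± 0.036 (limma, unadjusted p of 0.0068, adjusted p of 0.999). The vacuolar reductase FRE6 differed by -0.088 ± 0.050. FET5, FTH1, COT1 and MRS4 lay between -0.071 and -0.0028.

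The list's remaining 8 genes were a mixed group, in which only some spare or recover iron. Among them TIS11 (also called CTH2) encodes a protein that binds and destabilizes mRNAs of iron-using enzymes. It was at -0.64 and -0.66 in cbf1 medium and at -0.45 and -0.41 in wild-type medium. The groups lay apart with little spread inside either, for a difference of -0.23 ± 0.039 and the smallest unadjusted limma p after SIT1 (0.00038), at a modest signal of 2.5 times background. HMX1, the heme oxygenase that recovers iron from heme, differed by -0.14 ± 0.049 at a dim 1.6 times background. VHT1, the biotin transporter that Aft1 also controls, was the only member well above the reference, at 0.57 and 0.75 against 0.60 and 0.86, and its difference of -0.069 ± 0.032 had an unadjusted limma p of 0.064. AKR1, a palmitoyltransferase, differed by -0.14 ± 0.067 and the iron-sulfur scaffold genes ISU1 and ISU2 by 0.023 ± 0.090 and -0.098 ± 0.072. CTH1, the relative of TIS11, differed by -0.0014 ± 0.048, and LSB6 by 0.010 ± 0.040. Of the 8 genes in this group 6 were lower and 2, ISU1 and LSB6, were higher, with a median of -0.084.

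**Figure D1:**
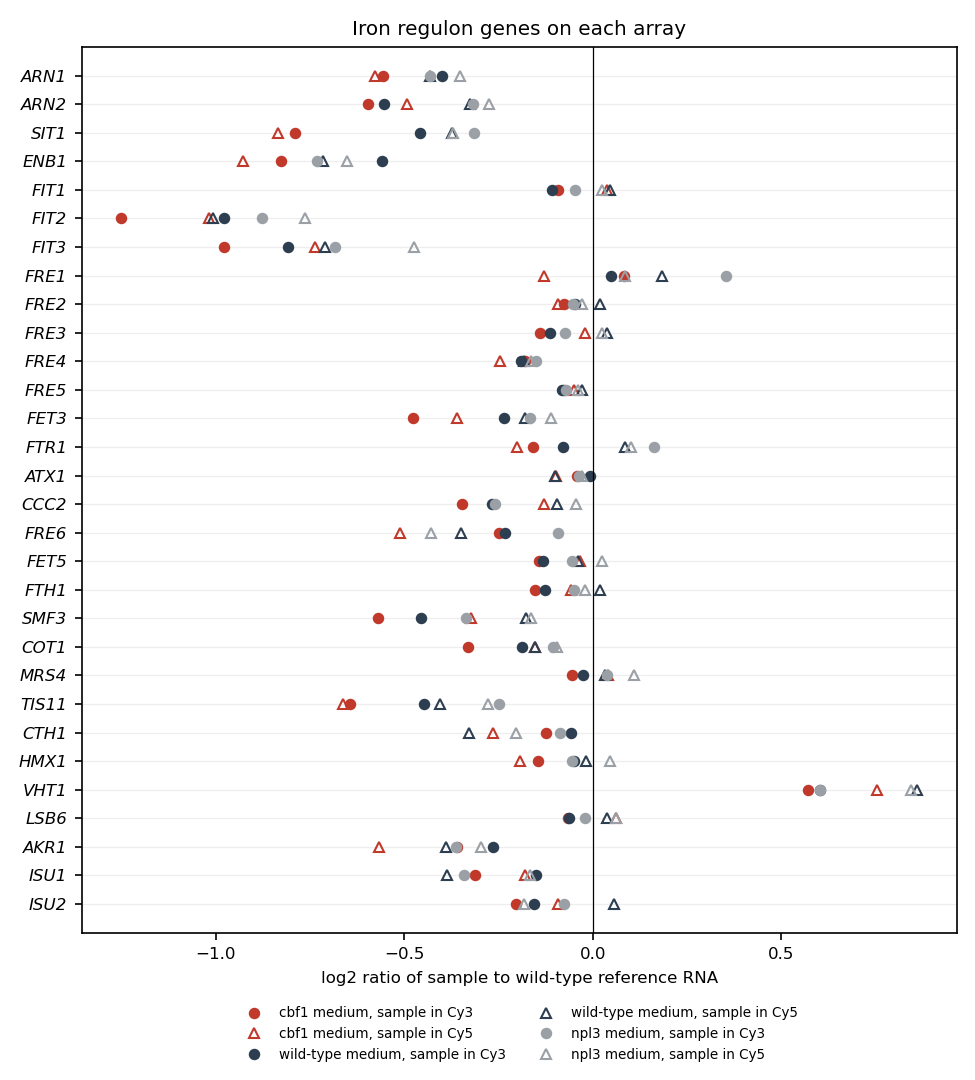
Log2 ratio of sample to reference (horizontal axis) for the 30 iron regulon genes (rows) on the arrays of cbf1 medium (red), wild-type medium (dark) and npl3 medium (grey). Filled circles are arrays with the sample in Cy3 and open triangles those with the sample in Cy5. For SIT1, ENB1, ARN1, FET3, FTR1 and TIS11 both red points lie left of both dark points.

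Since arrays of the same dye were most alike, the media were also compared array by array within each dye, without claiming that these arrays were paired. Over all probes the differences of the first arrays and of the second arrays were inversely related across genes (r = -0.395), and 2635 probes (41.2%) had the same sign in both. Lower values in both dyes were found for 19 of 30 iron genes (63.3%), against 20.6% of all probes, and higher values in both for 0 of 30, against 20.7%. The median of the list was -0.056 on the first arrays and -0.091 on the second.

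Genes induced by environmental stress, which encode chaperones, trehalose and glycogen enzymes and oxidant defences, were divided differently. Their median was -0.15 and -0.12 on the cbf1 arrays, while the wild-type arrays stood at 0.033 and -0.27, on either side of them. Of 47 members, 44 were lower in cbf1 medium on the first arrays (all probes: 49.3%) and 42 were higher on the second (all probes: 49.5%). The median differences within the dyes were -0.25 and 0.12, of opposite sign, and the fitted median was -0.054 with 38 of 47 members lower. Without the first wild-type array the fitted median was 0.17, and without the second it was -0.25. No member reached an unadjusted p under 0.05. The glycogen branching enzyme gene GLC3 was at -0.32 and -0.15 against -0.09 and -0.13. HOR7, a small stress-induced gene, was at 0.06 and 0.28 against 0.43 and 0.16.

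Ribosome biogenesis genes were divided the other way round. Their median was 0.36 and 0.36 in cbf1 medium, between the 0.20 and 0.41 of wild-type medium. On the first arrays 58 of 59 were higher in cbf1 medium (all probes: 50.7%), and on the second 45 of 59 were lower (all probes: 50.5%), with medians of 0.17 and -0.065. The fitted difference was positive for 55 of 59 at a median of 0.046, which was -0.068 without the first wild-type array and 0.17 without the second. At an unadjusted limma p under 0.05 there were 2 of 59 members, both higher (all probes: 0.611%) and the same way in each dye. RRP9, a protein of the U3 snoRNP that processes pre-rRNA, was at 0.36 and 0.40 against 0.24 and 0.30 (difference 0.11 ± 0.038). CBF5, the pseudouridine synthase of box H/ACA snoRNPs, was at 0.33 and 0.19 against 0.10 and 0.13 (difference 0.14 ± 0.057, from 0.057 to 0.23 with an array left out). The 40 measured cytosolic ribosomal protein genes had a median difference of -0.0043 and none at that level, although RPS10B, a ribosomal protein gene outside that list, was at 0.07 and 0.02 against -0.01 and -0.09.

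**Figure D2:**
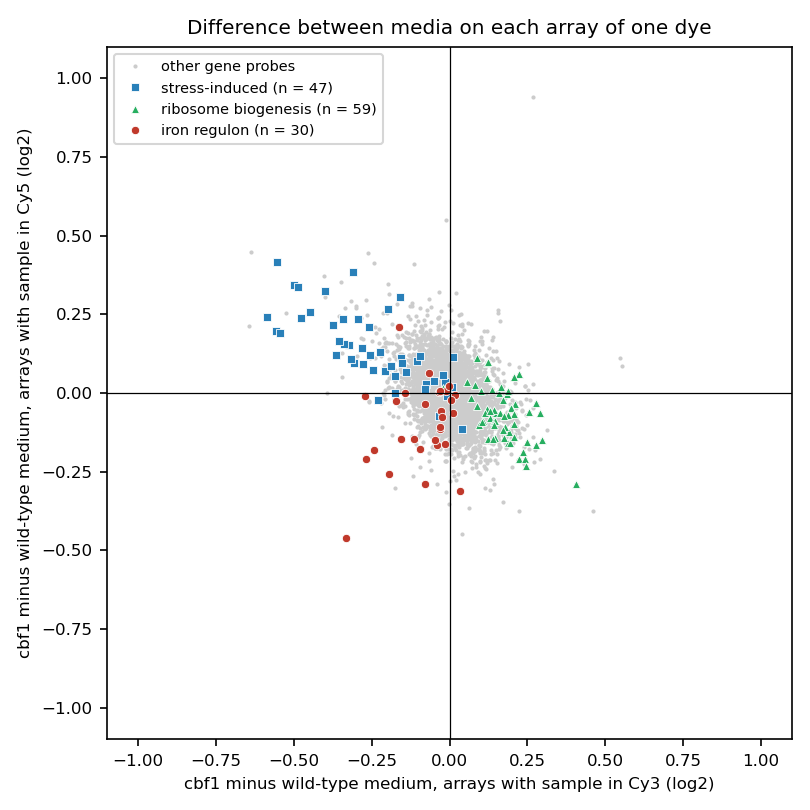
Difference between cbf1 and wild-type medium (log2) on the arrays with the sample in Cy3 (horizontal axis) and in Cy5 (vertical axis), with 1 point per gene probe and 3 gene lists in colour. Iron regulon genes lie toward the lower left, where 19 of 30 are lower in both dyes, while stress-induced genes lie at the upper left and ribosome biogenesis genes at the lower right.

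The alpha-specific genes followed the same division, with 4 of 4 higher on the first arrays and 4 of 4 lower on the second. Phospholipid genes had a median of -0.17 and 0.062 on the wild-type arrays and -0.059 and -0.087 on the cbf1 arrays, and 17 of 21 were lower in cbf1 medium at a fitted median of -0.049, but on the first arrays 14 of 21 were higher. The 1 of 21 phospholipid members at an unadjusted limma p under 0.05 (all probes: 0.611% higher), OPI1, a repressor of these genes, lay higher in both dyes at 0.33 and 0.50 against 0.22 and 0.33. Its fitted difference was 0.14 ± 0.051.

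**Figure D3:**
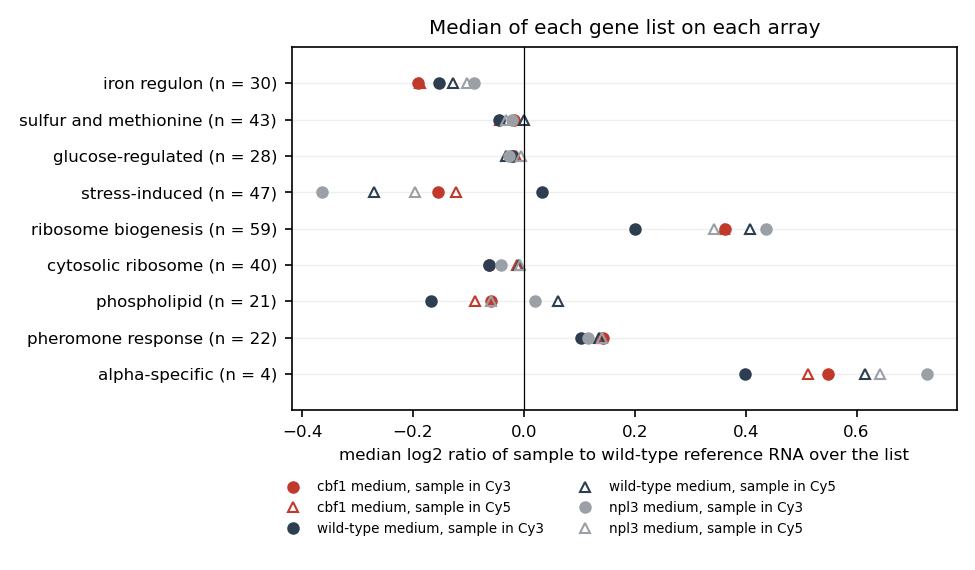
Median log2 ratio of sample to reference over each of 9 gene lists (rows, n genes measured) on the arrays of cbf1, wild-type and npl3 medium. The wild-type arrays lie on either side of the cbf1 arrays for the stress-induced, ribosome biogenesis, phospholipid and alpha-specific lists. The same holds, by less, for the sulfur and methionine and the cytosolic ribosome lists. The wild-type arrays lie to the right of the cbf1 arrays for the iron regulon, and slightly to the left for the glucose-regulated and pheromone response lists.

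Sulfur and methionine genes, the main targets of Cbf1 within its own cell, had small fitted differences in wild-type cells given cbf1 medium. Of 43 measured genes 18 were higher and 25 lower, with a median difference of -0.020 and all members between -0.086 and 0.083. None reached an unadjusted limma p under 0.05, and 36 of 43 were over 2 times background. On the first arrays 31 of 43 were higher in cbf1 medium (all probes: 50.7%), at a median of 0.019. On the second 26 of 43 were lower (all probes: 50.5%), at a median of -0.034. For the 6 cysteine and glutathione genes these medians were 0.085 and -0.16, of opposite sign. By role, the medians were -0.016 for sulfate uptake and assimilation (10 genes), -0.021 for methionine synthesis (12 genes), -0.027 for cysteine and glutathione synthesis (6 genes), 0.017 for the regulators (6 genes) and 0.0059 for permeases and scavenging enzymes (9 genes). MET6, the methionine synthase, had the smallest p of the list. It was at -0.01 and -0.09 in cbf1 medium and at -0.02 and 0.09 in wild-type medium, which overlapped, and its 95% interval ran from -0.20 to 0.031. MET14, the adenylylsulfate kinase, differed by -0.080 ± 0.065, the S-adenosylmethionine permease gene SAM3 by -0.076 ± 0.063, and the dim MET2 (1.8 times background), which acetylates homoserine, by 0.058 ± 0.044.

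Among the higher values, regulators of glucose uptake and repression recurred. Of 28 glucose-regulated genes measured, 4 were higher at an unadjusted limma p under 0.05 and 0 lower, against 0.611% and 0.689% of all probes, and for 8 the media did not overlap on the higher side, against 5.2%. MIG3, a zinc-finger repressor, was at 0.02 and 0.08 in cbf1 medium and at -0.10 and -0.11 in wild-type medium (difference 0.16 ± 0.040). MIG2, a related repressor induced by glucose, was at 0.50 and 0.39 against 0.34 and 0.13 (difference 0.21 ± 0.071). HXT1, the low-affinity transporter used at high glucose, was at 0.05 and 0.10 against -0.06 and -0.10 (difference 0.15 ± 0.047). In each of these genes both cbf1 arrays lay over both wild-type arrays, as they also did for MTH1, the partner of Rgt1 in repressing transporters, at 0.33 and 0.34 against 0.25 and 0.21 (difference 0.11 ± 0.040). With each array left out in turn, MIG3 and HXT1 stayed within 1.5 times their differences. Over the alternatives tried, MIG2 ranged from 0.13 to 0.28 and MTH1 from 0.060 to 0.15. The glucose genes that were higher were not of 1 kind, since HXT1 and MIG2 are induced by glucose while MTH1 is repressed by it. The list as a whole had a median difference of 0.023, 19 of 28 members were higher, and 11 were not over 2 times background on every array. In both dyes 13 of 28 were higher (all probes: 20.7%) and 2 lower (all probes: 20.6%). The lowest member was the glucokinase gene GLK1, at -0.54 and -0.39 against -0.02 and -0.65, with a difference of -0.13 ± 0.19 and wild-type arrays on either side of the cbf1 arrays.

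The largest difference of all was that of YKR075C, a gene of unknown function. It was at 0.89 and 0.86 in cbf1 medium and at 0.62 and -0.08 in wild-type medium. The difference of 0.61 ± 0.19, a ratio of 1.52, was higher in both dyes, but the wild-type arrays lay 0.70 apart. Without the first of them the difference was 1.00 and without the second 0.21, each against the single wild-type array that remained. The other probes over 1.2-fold higher were both probes of the pheromone-regulated gene PRM7, at 0.98 and 1.08 against 0.43 and 0.99 on the first and 0.90 and 1.11 against 0.36 and 1.00 on the second, and MPC3, a subunit of the mitochondrial pyruvate carrier, at 0.37 and 0.32 against 0.38 and -0.23. The media overlapped in all of these, and a single wild-type array stood apart.

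Other genes with higher values and small p came from separate processes. YGR035C, which is uncharacterized, was at 0.38 and 0.46 against 0.23 and 0.20 (difference 0.21 ± 0.051). TOD6, a repressor of ribosome biogenesis genes, was at 0.42 and 0.38 against 0.17 and 0.29, and its difference of 0.17 ranged from 0.089 to 0.25 with an array left out. QDR2, a plasma membrane multidrug transporter, was at -0.34 and -0.24 against -0.50 and -0.47. The media did not overlap for any of these, nor for the protein phosphatase gene PTC2 (difference 0.15 ± 0.055, from 0.061 to 0.24 with an array left out) and the heme synthesis gene HEM3 (0.13 ± 0.043), the latter at 2.0 times background. DIG1, an inhibitor of the mating transcription factor Ste12, was at 0.24 and 0.01 against 0.10 and -0.17, which overlapped between dyes but was higher within each (difference 0.16 ± 0.046). FUS1, a mating gene that Ste12 activates, was at 0.52 and 0.59 against 0.43 and 0.48 (difference 0.10 ± 0.036). It was the 1 member of 22 pheromone response genes at an unadjusted limma p under 0.05 (all probes: 0.611% higher), and 6 of the 22 were higher in both dyes, against 20.7% of all probes.

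Lower values outside iron uptake were found for VMR1, an ABC transporter of the vacuole, at -0.27 and -0.33 against -0.09 and -0.20, and for SRY1, a hydroxyaspartate dehydratase, at -0.12 and -0.32 against -0.01 and -0.06. The cell wall integrity gene ZEO1 was at 0.07 and -0.07 against 0.20 and 0.13. Neither these 3 genes nor APD1 (difference -0.14 ± 0.036), YBR071W (-0.11 ± 0.032) and the synaptonemal complex gene ZIP1 (-0.12 ± 0.038) overlapped between the media. CIT2, the peroxisomal citrate synthase that serves as the readout of retrograde signalling, was at -0.92 and -0.75 against -0.53 and -0.75. Its difference of -0.20 ± 0.13 came from the first arrays (-0.39), the second arrays differing by -0.00079. LEU1, an iron-sulfur enzyme of leucine synthesis, was at 0.32 and 0.21 against 0.33 and 0.53 and differed by -0.16 ± 0.071 (limma, unadjusted p of 0.0496, adjusted p of 0.999). The first arrays differed by -0.011 and the second by -0.32, and with an array left out the difference ranged from -0.29 to -0.039. LEU1 was the 1 member of the 20 iron and heme proteins at an unadjusted limma p under 0.05 (all probes: 0.689% lower). Of these proteins 13 were higher and 7 lower at a median of 0.0091. In both dyes 8 were higher (all probes: 20.7%) and 2 lower (all probes: 20.6%). OAC1, the carrier that brings the substrate of Leu1 out of mitochondria, differed by -0.16 ± 0.083. The amino acid permease gene AGP1 and the cell wall gene PST1 were lower by -0.097 ± 0.037 and -0.12 ± 0.050.

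**Figure D4:**
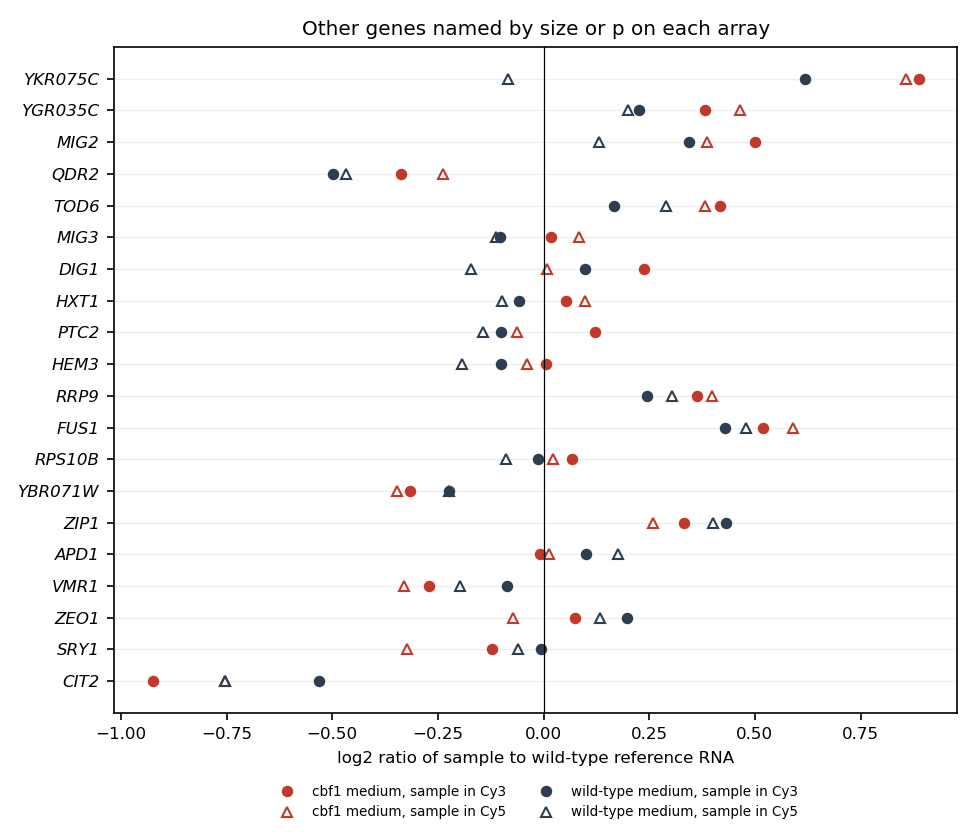
Log2 ratio of sample to reference (horizontal axis) for the 20 genes outside the iron list with the smallest p or the largest difference without overlap (rows), on the arrays of cbf1 (red) and wild-type medium (dark), with filled circles for samples in Cy3 and open triangles for samples in Cy5. YKR075C has a single wild-type array at -0.08, far from the other 3 points between 0.62 and 0.89.

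In 23 of the 32 gene lists no member reached an unadjusted limma p under 0.05, and the medians of these 23 lay between -0.054 (stress) and 0.029 (biotin). Biotin genes were far above the reference in both media, with BIO5 at 1.40 and 1.69 against 1.39 and 1.58 and BIO3 at 1.33 and 1.27 against 1.38 and 1.31, and did not separate them. Medians were 0.013 for 12 zinc genes, -0.0047 for 6 copper genes, 0.0044 for 14 phosphate genes, -0.0044 for 11 thiamine genes and 0.015 for 17 purine and one-carbon genes. The copper genes included the metallothionein probe CUP1-2, at -0.17 and -0.45 against -0.15 and -0.29, which cannot be told from its identical copy. For the 11 centromere and kinetochore genes, which stand for the second role of Cbf1, the median was -0.00025, with CSE4 at -0.065 ± 0.038. Cell cycle lists were also close to 0, with medians of 0.0024 for 23 G1/S genes, -0.0040 for 12 G2/M genes and 0.010 for 10 histone genes. Of the G1/S genes 18 were lower on the first arrays (all probes: 49.3%) and 17 higher on the second (all probes: 49.5%), with medians of -0.038 and 0.040. The 20 M/G1 and daughter-cell genes, outside these 23 lists, had a median of -0.012, with 12 lower. PST1 was their 1 member at an unadjusted limma p under 0.05 (all probes: 0.689% lower).

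Medium from the npl3 deletion strain, which was handled in the same set of arrays, was used to see whether these values set cbf1 medium apart from another slow-growing donor. In this comparison limma called 2 of 6388 probes (0.0313%), both iron genes lower in cbf1 medium. SIT1 was at -0.31 and -0.37 in npl3 medium, against the -0.79 and -0.83 of cbf1 medium, and differed by -0.47 ± 0.050 (limma adjusted p = 0.037). TIS11 was at -0.25 and -0.28, against -0.64 and -0.66, and differed by -0.39 ± 0.039 (limma adjusted p = 0.037). In both genes the npl3 arrays lay on the side of the wild-type arrays or above them. Of the 30 iron genes 29 had a lower value in cbf1 than in npl3 medium (all probes: 50.7%), with a median of -0.10, and 13 were lower at an unadjusted limma p under 0.05 (all probes: 0.767%) and 0 higher (all probes: 0.673%). Among the iron genes FTR1 differed by -0.31 ± 0.057, FET3 by -0.28 ± 0.081, ARN2 by -0.25 ± 0.050 and SMF3 by -0.20 ± 0.036. The iron list's median was -0.090 and -0.10 on the npl3 arrays, above the -0.15 and -0.13 of the wild-type arrays. The difference between cbf1 and npl3 medium thus also held a departure of npl3 medium from wild-type medium, the other way. Other lists were as one-sided between cbf1 and npl3 medium. Of 47 stress-induced genes 2 had a lower value in cbf1 than in npl3 medium, at a median difference of 0.13, and of 20 M/G1 and daughter-cell genes 2, at a median of 0.071. Lower values in cbf1 medium were found for 51 of 59 ribosome biogenesis genes (median -0.034), 18 of 21 phospholipid genes (-0.057) and 4 of 4 alpha-specific genes (-0.14). Of the 7 one-carbon and glycine cleavage genes 1 was lower, and their median was 0.21. This comparison shares its cbf1 arrays with that against wild-type medium, so that the lower values in both are not separate evidence. Without either cbf1 array no probe was called against npl3 medium, and over the alternatives tried 0 to 8 probes were called.

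Of the higher genes, HXT1, MIG2 and MTH1 had higher values in cbf1 than in npl3 medium too, by 0.21 ± 0.047, 0.27 ± 0.071 and 0.27 ± 0.040, without passing adjustment, whereas YGR035C (0.017 ± 0.051), MIG3 (0.044 ± 0.040), TOD6 (0.054 ± 0.052) and RRP9 (0.0062 ± 0.038) differed from npl3 medium by about their standard error or less. QDR2 lay on the other side, at -0.22 and 0.03 in npl3 medium, and was lower in cbf1 medium by -0.19 ± 0.077. YKR075C was at 0.27 and 0.29 in npl3 medium, between the values of wild-type medium and below both cbf1 arrays.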

How the data were processed

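Wild-type yeast RNA was hybridized to 12 spotted arrays with a channel per dye. The authors deposited unnormalized scanner intensities of each spot. They also deposited log2 ratios, for which loess was applied in each print tip (span 0.4), the background was kept and dye bias was corrected gene by gene. Another table holds the authors' own comparisons with p-values, made with limma 2.12.0, and was not used. No build is named in the sources used here, so no coordinates or sequences are given.

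The intensities were used. An array carries 15552 spots. The 6388 gene probes, spotted 2 times each, take 12776 of them, and the 2776 control spots were left out. Symbols were found for 5326 probes, and all of these matched a locus in the RefSeq gene table (60 symbols updated). Probes without a symbol, 1062 in number, were tested and not named. In limma 3.58.1 (R 4.3.3), background was corrected by normexp (offset 50), loess on the gene spots normalized each array, the labelled dyes gave the direction (sample over reference), and the spots of a probe were averaged. For a symbol on several probes (16 symbols) the brightest probe stands for the gene in the lists. Limma's fit had 6 group means and a dye term (5 residual degrees of freedom, prior 3.20). Its tests were two-sided and adjusted over 6388 probes at 0.05. The fit was tested on simulated data. The number of arrays limits the precision.

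Named genes were CBF1, the 12 genes of smallest p in each direction, the 8 with the largest difference without overlap and over 2 times background in each direction, every iron regulon gene, and up to 4 genes of smallest p from each other list described. PRM7, MPC3 and GLK1 were added after their values were seen. The comparison and the gene lists were chosen with earlier results of these data known. The results were recomputed with each of the 4 arrays left out in turn, with only 6 or 4 arrays in the fit, without the dye term, with a replicate block, with both spots of a probe in the fit (duplicate spots kept apart), and without the darkest 25% of probes. The normalization was replaced by median centring, by loess per print tip or by the deposited log2 ratios (1 column, of another medium, was turned because it ran against its scanner values), and the background subtraction was dropped.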

Additional observations from a re-analysis of the deposited data

Results flagged for a closer look

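SIT1 and TIS11 differed between the cbf1 and npl3 media, which were both set beside the same wild-type arrays, by a direct test of that difference in limma (-0.47 and -0.39, each with an adjusted p of 0.037). Each gene was lower on both cbf1 arrays than on both npl3 arrays. Both calls ended without either of the cbf1 arrays, with loess per print tip, with median centring, without the dye term and with the arrays of set 1 alone, and with the replicate block 1 probe was called in place of 2.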

How the results depend on the processing

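No probe was called against wild-type medium under 12 of 14 alternatives. The exceptions were duplicate spots kept apart (1 probe, SIT1, limma adjusted p = 0.0065) and leaving out the first wild-type array. The former counts spots of the same array as observations (correlation between duplicate spots 0.70) and adds no array. The latter leaves a single wild-type array, so that its calls carry no spread within that group. Probes at an unadjusted limma p under 0.05 numbered 46 without background subtraction, 28 with median centring, 38 without the darkest probes (fewer were tested), 22 without the dye term, and 69 to 476 with an array left out. Calls against npl3 medium were 0 with loess per print tip, median centring, no dye term or the arrays of set 1 alone, 1 with the deposited log2 table, 8 with duplicate spots kept apart, and 0 to 3 with an array left out. The iron median was -0.098 without the darkest probes and -0.11 to -0.055 with an array left out. With an array left out the stress median ranged from -0.25 to 0.17, the ribosome biogenesis median from -0.068 to 0.17 and the sulfur and methionine median from -0.032 to 0.020. Of 53 named genes 44 had the same sign under every alternative, and with each array left out 17 stayed within 1.5 times their reported difference while 36 moved further. FIT1 turned to -0.0051 with loess per print tip, -0.011 with median centring and -0.0071 in the deposited table, and ranged from -0.043 to 0.054 with an array left out. The other sign changes came with an array left out, where FIT2 ranged from -0.36 to 0.080, FIT3 from -0.26 to 0.063, FRE1 from -0.31 to 0.030, ISU1 from -0.12 to 0.16, CIT2 from -0.44 to 0.044, HOR7 from -0.29 to 0.048, MET14 from -0.18 to 0.020 and SAM3 from -0.18 to 0.024. The cause of these shifts was not tested.

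The array numbers coincide with the dye, and no label says that they pair arrays of different media. After the dye difference seen in set 2 was taken off, the deviations of same-numbered arrays correlated across probes at 0.60 (cbf1 and wild-type medium), 0.65 (cbf1 and npl3 medium) and 0.22 (npl3 and wild-type medium). The same estimate was taken off every medium, which by itself can make deviations correlate, and set 1 can hold a dye difference of its own. These correlations therefore cannot show deviations shared beyond the dye. With the number as a replicate block in each set, 127 probes had an unadjusted limma p under 0.05, 0 were called against wild-type medium and 1 against npl3 medium. Dim probes, whose ratios the offset draws toward 0, limit what can be said of 18.7% of the probes.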

Other observations

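External control spots, which report RNA added at amplification and were not used in the fits, had median log2 ratios of 0.14 and -0.22 on the arrays of cbf1 medium, 0.26 and -0.43 on those of wild-type medium and 0.052 and 0.013 on those of npl3 medium after normalization on gene spots.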
